A study of Mus musculus with 2 samples.

Results

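The 9 genes examined here encode integrin subunits and one integrin-like protein of tendon cells, namely Itga1, Itga5, Itga8, Itga10, Itga11, Itgav, Itgb1, Itgb5 and Itgbl1, which were taken by symbol out of the 27998 genes counted. All 9 were found in both count tables. Each was followed in 2 single-cell libraries of limb tendons at P7. One library is titled wild-type, although its description reads Het, and the other is the Tgfbr2;ScxCre mutant, in which Scx-driven Cre removes the type II TGFβ receptor from tendon cells. Each library pooled fore- and hindlimb tendons of 2 pups, and by the methods the mice of the study also carried the ScxGFP tendon reporter and the Ai14 Rosa26-tdTomato Cre reporter. The mutant pups carried 1 floxed and 1 null Tgfbr2 allele, and Cre activity was not uniform among tendon cells in embryos. The paper reports complete targeting only in early postnatal stages, with receptor staining nearly lost in mutant tendons at birth.

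Integrins are receptors made of an α and a β chain that link the cytoskeleton to extracellular matrix. Among the α chains here, α1, α10 and α11 pair with β1 and bind collagens, whereas α5, α8 and αv bind ligands such as fibronectin through an Arg-Gly-Asp (RGD) site. The αv chain also pairs with β5 and takes part in the activation of latent TGFβ. Itgbl1 encodes a secreted protein with repeats like those of integrin β chains but no membrane anchor. In tendon, collagen-binding integrins connect tenocytes to type I collagen fibres, and focal adhesion proteins connect the receptors to actin.

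Cells were sorted into classes by their counts of UMIs, which mark single captured RNA molecules. Scx-high cells held at least 30 Scx UMIs per 10000, where Scx encodes scleraxis, the transcription factor that marks tendon cells. Scx-low fibroblasts held fewer and had at least 5 UMIs summed over Ly6a, Cd34, Dpt, Lum and Col3a1. There were 1157 Scx-high cells among 2364 in the wild-type library (48.9%) and 233 among 2592 in the mutant library (8.99%), against 720 (30.5%) and 1843 (71.1%) Scx-low fibroblasts. Mural, endothelial and immune cells numbered 139, 21 and 181 in the wild-type library and 83, 26 and 192 in the mutant library. The shares are set by the Scx threshold, and what the ScxGFP reporter adds to the Scx counts was not tested.

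Each group is 1 library, so there is no replicate and no test. Intervals given with a value are 95% exact intervals that cover counting error only, and condition, pool and library preparation cannot be told apart. Levels are sums over the cells of a class, given as UMIs per 1000000 UMIs of that class (CPM). A UMI marks one 3′ end and was not divided by gene length, so levels are compared within a gene. Libraries held 9451606 and 8250248 UMIs, with medians of 3866.5 and 2828 per cell, and 2 cell barcodes occurred in both. Tgfbr2 itself stood at 30.5 (25.7 to 35.8) CPM in wild-type Scx-high cells and 45.7 (33.8 to 60.5) in mutant ones, and a 3′ count that lies outside the deleted part does not check the deletion.

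Scx-high cells of the mutant library carried a fibroblast signature that those of the wild-type library mostly lacked. Their median over the fibroblast markers was 59.8 UMIs per 10000 against 3.62. Over the tenocyte markers other than Scx, which sets the class, the median was 109 against 162 UMIs per 10000, with Tnmd at 5423 against 7471 CPM and Fmod (fibromodulin) at 2477 against 5360. Mkx, Kera and Col11a1 of that list were lower too, and Thbs4 went the other way, at 1797 against 1151 CPM. Of the 233 mutant Scx-high cells, 180 (77.3%) also met the gate of 5 UMIs over the fibroblast genes, compared with 183 of 1157 (15.8%) in the wild-type library. The 53 mutant Scx-high cells without these genes were shallower, with a median of 2718 UMIs against 4848, and held 1009 CPM over muscle markers against 5.47. The doublet caller Scrublet marked 0 of the 233 cells, and in these counts a doublet and a single cell with both signatures cannot be told apart.

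In GRCm38 with the GENCODE M21 annotation, Itgbl1 lies on chromosome 14 (123659971 to 123975618, + strand), Itga11 on chromosome 9 (62677826 to 62783982, + strand) and Itga5 on chromosome 15 (103344286 to 103366763, − strand). Itgb1 lies on chromosome 8 (128685654 to 128733200, + strand) and Itgav on chromosome 2 (83724397 to 83806916, + strand). Pelo lies inside Itga1 on the same strand and Gm42957 overlaps Itga10 on the same strand, so reads of the shared stretches are uncertain for those 2 members. E030013I19Rik overlaps the Itga8 start on the opposite strand. The 5′ flanks of Itgbl1, Itga11 and Itga5 are shown because these 3 genes had the largest ratios of the measured members in the comparisons that follow, each ending before the annotated transcription starts, with E-boxes (CANNTG, the letters bound by Scx and other bHLH factors) in capitals.
Itgbl1 (chr14:123659890-123659970, + strand, RefSeq GRCm38.p6): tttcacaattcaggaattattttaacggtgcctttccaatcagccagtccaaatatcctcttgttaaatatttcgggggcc
Itga11 (chr9:62677605-62677825, + strand, RefSeq GRCm38.p6): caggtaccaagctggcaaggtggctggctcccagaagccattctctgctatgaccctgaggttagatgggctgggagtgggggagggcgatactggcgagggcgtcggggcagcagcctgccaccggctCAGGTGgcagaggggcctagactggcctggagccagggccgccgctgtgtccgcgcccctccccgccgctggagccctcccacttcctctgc
Itga5 (chr15:103366792-103367041, − strand, RefSeq GRCm38.p6): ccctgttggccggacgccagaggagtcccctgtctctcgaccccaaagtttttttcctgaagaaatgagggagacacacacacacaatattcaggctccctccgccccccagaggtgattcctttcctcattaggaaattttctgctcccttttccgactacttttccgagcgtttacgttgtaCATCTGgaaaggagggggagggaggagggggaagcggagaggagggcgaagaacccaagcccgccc

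The Itga11 and Itga5 flanks held 1 E-box each. The Itgbl1 flank, cut to 81 bases at the GENCODE start, held 0, and the full window of 250 bases for Itgbl1 held 2. In full windows of 250 bases before the RefSeq start, searched on both strands, 6 of the 9 members held an E-box, and 66.2% of 32851 windows of all genes did. The letters CAGAC or GTCTG, the core to which Smad proteins bind, occurred in 2 of the 9 members and in 42.2% of all windows. The share of members with either motif was therefore near or below that of all genes.

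Itgb1, the shared partner of the collagen-binding and most fibronectin-binding α chains, was counted in every class. In the wild-type library it stood at 259 (245 to 274) CPM in Scx-high cells, 349 (327 to 372) in Scx-low fibroblasts, 602 (545 to 663) in mural cells, 649 (484 to 851) in endothelial cells and 208 (169 to 253) in immune cells. In the mutant library the levels in the same order were 334 (300 to 371), 284 (270 to 298), 697 (600 to 806), 598 (445 to 786) and 198 (156 to 248). Mural and endothelial cells were thus the high classes in both libraries, their intervals overlapped each other, and immune cells were the low class. The order of Scx-high cells and Scx-low fibroblasts was turned between the libraries.

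Itgb5, which pairs with αv, stood at 66.6 (59.5 to 74.2) CPM in wild-type Scx-high cells, 68.6 (59.1 to 79.2) in Scx-low fibroblasts and 72.5 (53.6 to 95.8) in mural cells, and these classes overlapped. In the mutant library the 3 levels were 74.7 (59.2 to 92.9), 53.5 (47.7 to 59.8) and 65.1 (37.9 to 104). No Itgb5 UMI was counted in 21 and 26 endothelial cells, which allows levels of up to 37.4 and 35.2 CPM. Immune cells held 83.1 (59.4 to 113) and 162 (124 to 207), a ratio of 1.94 (1.29 to 2.97) of mutant over wild-type. The immune class is defined by pan-leukocyte and myeloid markers, and its makeup was not followed further.

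Itgbl1 was the member most concentrated in Scx-high cells of the wild-type library, which held 1725 of its 1906 UMIs (90.5%). Its level there was 358 (341 to 375) CPM, compared with 50.6 (42.5 to 59.8) in Scx-low fibroblasts, 23.7 (13.5 to 38.4) in mural cells and 6.24 (1.29 to 18.2) in immune cells, and with 0 UMIs in endothelial cells. In the mutant library it stood at 320 (287 to 356) in Scx-high cells and 110 (102 to 119) in Scx-low fibroblasts, and 3, 2 and 5 UMIs were counted in mural, endothelial and immune cells. There 343 of 1010 UMIs (34.0%) came from Scx-high cells and 637 (63.1%) from Scx-low fibroblasts. The immune level, which free RNA alone can give, was 1.74% of the Scx-high level for Itgbl1 in the wild-type library and 2.15% for Scx and 2.59% for Tnmd. In the mutant library it was 4.07% for Itgbl1, 0.26% for Scx, 2.64% for Tnmd and 5.36% for Col1a1. The Scx-low level of Itgbl1 was 14.2% of the Scx-high level in the wild-type library and 34.5% in mutant cells, above those immune shares. Haemoglobin-rich cells held larger shares of their other UMIs. In the wild-type library these were 38.7% (7.98 to 113) of the Scx-high level for Itgbl1, from 3 UMIs, and 19.3% for Scx, 21% for Tnmd and 20.9% for Col1a1. Mutant haemoglobin-rich cells held 30.3% (0.77 to 170) for Itgbl1, from 1 UMI, 3.8% for Scx, 12.5% for Tnmd and 10.4% for Col1a1. The wild-type Scx-low level of Itgbl1, at 14.2%, was below these wild-type shares. They are taken over UMIs other than haemoglobin and do not give the amount of free RNA in a fibroblast. The mutant Scx-low level, at 34.5%, lay within the Itgbl1 interval of mutant haemoglobin-rich cells, which 1 UMI leaves too wide to compare. It was above the shares of Scx, Tnmd and Col1a1 in those cells. The part of free RNA in either level was not tested.

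Of the fibronectin-binding α chains, Itga5 was highest in endothelial cells, with 125 (59.8 to 229) and 117 (56.2 to 216) CPM in the wild-type and mutant libraries from 10 UMIs each. Scx-low fibroblasts came next in the wild-type library at 68.6 (59.1 to 79.2), within the endothelial interval, and Scx-high cells were low at 16.2 (12.8 to 20.2). In the mutant library Scx-low fibroblasts stood at 23.6 (19.8 to 27.9) and Scx-high cells at 26.1 (17.4 to 37.8), and the 2 classes overlapped. Itga8 marked mural cells, with 53.2 (37.3 to 73.7) and 30.6 (13.2 to 60.4) CPM, and its UMIs in Scx-high cells numbered 4 and 8. Itgav was spread more evenly. Its level was 25.3 (21 to 30.2) in Scx-high cells, 45.1 (37.5 to 53.8) in Scx-low fibroblasts and 42.9 (28.7 to 61.6) in mural cells of the wild-type library. The mutant levels in those classes were 53.2 (40.3 to 68.9), 37.9 (33.1 to 43.3) and 30.6 (13.2 to 60.4).

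The collagen-binding α chains were sparse. Itga1 stood at 56.2 (39.8 to 77.1) and 57.5 (32.2 to 94.8) CPM in mural cells. Wild-type endothelial cells held 4 Itga1 UMIs, 49.9 CPM, so that mural cells were at 1.13 (0.41 to 4.34) times that level, and mutant endothelial cells held 0. In Scx-high cells 27 and 2 Itga1 UMIs were counted, or 5.60 (3.69 to 8.14) and 1.87 (0.23 to 6.74) CPM. Itga10 gave 25 and 13 UMIs in Scx-high cells, 5.18 (3.35 to 7.65) and 12.1 (6.46 to 20.7) CPM. Itga11, the α chain that serves as a type I collagen receptor on fibroblasts, gave 59 and 42 UMIs there, 12.2 (9.31 to 15.8) and 39.2 (28.3 to 53.0) CPM. In Scx-low fibroblasts Itga11 stood at 9.17 (5.93 to 13.5) and 15.4 (12.4 to 19.0). Neither Itga10 nor Itga8 had a UMI in endothelial or immune cells of either library, and Itga11 had 1, in a mutant immune cell.

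**Figure D1:**
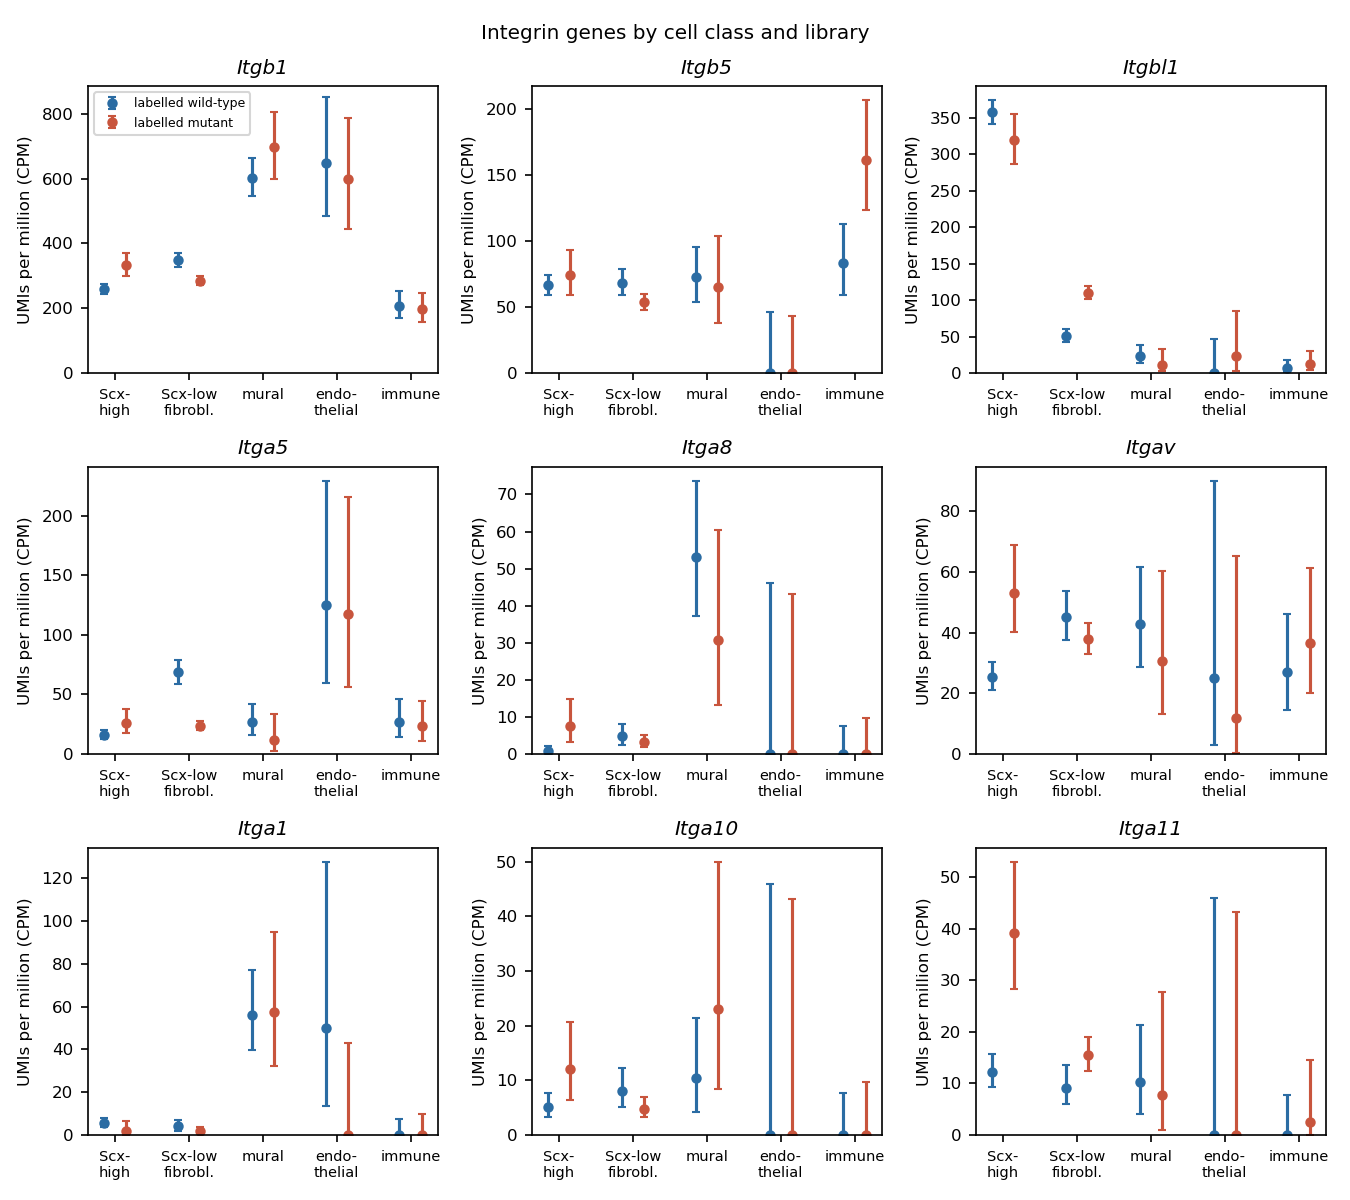
CPM (linear axis from 0) of each of the 9 genes in 5 cell classes, with blue for the library labelled wild-type and red for the library labelled mutant; points are sums over the cells of a class and bars are 95% exact Poisson intervals. Itgbl1 is high in Scx-high cells, Itga8 in mural cells, Itga1 in mural and wild-type endothelial cells, Itga5 in endothelial cells, and Itgb1 in mural and endothelial cells.

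Within the wild-type library, Scx-high cells and Scx-low fibroblasts differed in both directions. Itgbl1 was 7.07-fold (5.94 to 8.47) higher in Scx-high cells, and Itga5 was 4.24-fold (3.24 to 5.60) lower. These were the 2 of 8 members with at least 30 UMIs that passed a 2-fold difference, 1 in each direction, and Itga8 had too few UMIs. Of 9779 genes measured, 5.75% were at least 2-fold higher and 19.3% at least 2-fold lower. Itgav was 0.56 (0.43 to 0.73) times its Scx-low level, and this too was an interval without 1. The median gene was lower in Scx-high cells by 0.44 on the log2 scale. Relative to that median, Itgb1 moved from 0.74 to 1.01 and Itgb5 from 0.97 to 1.32, so neither has a direction that holds on both scales, whereas Itgbl1 stood at 9.62 and Itga5 at 0.32.

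The same comparison in the mutant library gave 3 of 7 measured members at least 2-fold higher in Scx-high cells and 0 lower, where 5.39% and 13.0% of 9817 genes were. Itgbl1 was 2.90-fold (2.54 to 3.31), Itga11 2.54-fold (1.72 to 3.71) and Itga10 2.50-fold (1.19 to 4.99) higher. The Itga5 ratio was 1.11 (0.71 to 1.68), an interval that holds 1. When the Scx-high cells with fibroblast genes were left out, the ratios went to 0.82 (0.098 to 3.06) for Itga11 and 0.54 (0.065 to 1.98) for Itga5, from 2 UMIs each, and to 1.55 (1.02 to 2.28) for Itgbl1. That of Itgb5 went from 1.40 to 0.95 (0.41 to 1.89). Of the 42 Itga11 UMIs in mutant Scx-high cells, 40 came from the 180 cells that carry both signatures. Those cells held most UMIs of other genes too, with 5124 of 5810 for Tnmd and 19450 of 22037 for Col1a1. The Itga11 interval without them, 0.098 to 3.06, still holds 2.54.

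Tgfbr2 deletion in tendon cells was the question behind the next comparison, between libraries within Scx-high cells. The paper proposes that cells keeping ScxGFP in mutant tendons are newly recruited, some with weak or no Cre reporter. It traces the ScxGFP-negative cells there to former tenocytes. Whether the mutant Scx-high cells counted here carry the deletion was not tested. Summed over the 6 α members, the level was 140 (118 to 164) CPM in the mutant and 65.3 (58.3 to 72.9) in the wild-type library, a ratio of 2.14 (1.75 to 2.61). The ratio of this sum was 1.71 (1.28 to 2.29) among cells with fibroblast genes. Among those without it was 1.78 (1.02 to 2.90), from 17 mutant UMIs. These ratios are not relative to the median gene, which was higher in the mutant library by 0.28, 0.12 and 0.41 on the log2 scale in that order. Itga11 was 3.20-fold (2.10 to 4.84), Itga10 2.34-fold (1.10 to 4.75) and Itgav 2.10-fold (1.51 to 2.90) higher. These made 3 of the 7 measured members at least 2-fold higher and 0 lower, beside 12.3% and 7.00% of 8833 genes. Of 18 other integrin subunits 4 were measured in these cells, and 0 were at least 2-fold higher and 2 lower. Among the 18, Itga2 had 41 UMIs in wild-type and 3 in mutant Scx-high cells, and Itga9 had 28 and 3. Itga5 was at 1.62 (1.01 to 2.52) and Itgb1 at 1.29 (1.14 to 1.45). Itgb5, at 1.12 (0.87 to 1.44), and Itgbl1, at 0.90 (0.79 to 1.01), had intervals that hold 1. Itga1 and Itga8 were under the minimum. With cycling cells removed Itga10 was under it too, and Itgav was at 1.82.

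The median gene was higher in the mutant library in this comparison, by 0.28 on the log2 scale. Relative to that median the ratios were 2.65 for Itga11, 1.93 for Itga10, 1.74 for Itgav, 1.34 for Itga5, 1.06 for Itgb1, 0.93 for Itgb5 and 0.74 for Itgbl1, so that Itga11 alone stayed above 2 and Itgb5 changed side. Col1a1, the main tendon collagen, was 3.59-fold lower in the same cells.

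The fibroblast-gene split changed some of these values and left others. Among Scx-high cells that met the fibroblast gate, Itga11 stood at 43.8 (31.3 to 59.6) CPM in the mutant and 14.6 (7.77 to 25.0) in the wild-type library, a ratio of 3.0 (1.57 to 6.11). Among those that did not, 2 and 46 UMIs gave a ratio of 1.09 (0.13 to 4.15), which does not exclude a 3-fold difference. Itgav was near 2 in both, at 1.99 (1.2 to 3.39) with and 2.04 (0.86 to 4.17) without fibroblast genes. Itgbl1 went in opposite directions. With fibroblast genes it was at 346 (309 to 386) in the mutant and 275 (242 to 312) in the wild-type library, a ratio of 1.26 (1.06 to 1.49), and without them at 171 (113 to 249) and 376 (357 to 396), 2.20-fold (1.5 to 3.34) lower in the mutant. Itgb1 was at 0.94 (0.80 to 1.10) with and 1.41 (1.05 to 1.87) without them, and Itgb5 at 1.60 (1.08 to 2.38) with and 0.72 (0.31 to 1.44) without. Itga5 was at 0.94 (0.53 to 1.67) with and 0.98 (0.12 to 3.72) without fibroblast genes, the latter from 2 mutant UMIs. Both intervals hold its ratio of 1.62 over all Scx-high cells, so the split does not decide whether that ratio is present on either side. In the cells without fibroblast genes 24.3% of 7529 genes were at least 2-fold higher and 9.55% lower, and in those with them 6.93% and 4.32% of 5626 genes were. The median gene was higher in the mutant library by 0.41 on the log2 scale without and by 0.12 with fibroblast genes. The member ratios of this split are not relative to that median. The part of muscle markers and of depth in the values of the 53 mutant cells was not tested.

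**Figure D2:**
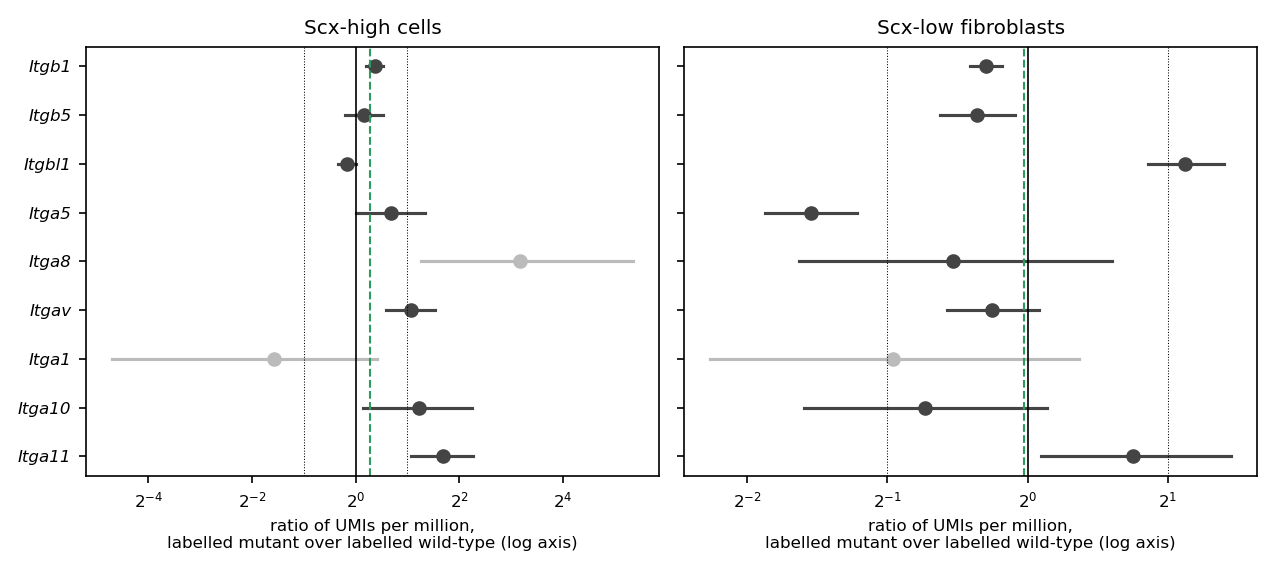
Ratio of CPM, library labelled mutant over library labelled wild-type, for each of the 9 genes (log2 axis, from lower at left to higher at right) in Scx-high cells and in Scx-low fibroblasts; bars are 95% exact intervals, grey points have under 30 UMIs, dotted lines mark 2-fold and the green dashed line is the median of all genes. Itga5 lies at 1.62 in Scx-high cells and at 0.34 in Scx-low fibroblasts, and Itgbl1 at 0.90 and 2.18.

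Scx-low fibroblasts showed a different set, in a class whose makeup differed between the libraries. This class was 30.5% of wild-type and 71.1% of mutant cells, and 42.8% and 19.6% of it held a UMI of the adventitial fibroblast marker Pi16. Itgbl1 was 2.18-fold (1.81 to 2.64) higher in the mutant library and Itga5 2.91-fold (2.32 to 3.66) lower. They were the 2 of 8 measured members past 2-fold, 1 higher and 1 lower, beside 5.17% and 4.97% of 10344 genes, and the median gene moved by −0.03 on the log2 scale. Itga11 was at 1.68 (1.07 to 2.74). Itgb1 was at 0.81 (0.75 to 0.88), Itgb5 at 0.78 (0.65 to 0.94) and Itgav at 0.84 (0.67 to 1.06). Itga8 at 0.69 (0.32 to 1.52) and Itga10 at 0.60 (0.33 to 1.10) had intervals that hold 1. The Itgbl1 ratio was below 2 at an equal depth per cell, at 1.64, and as a mean over cells, at 1.73. The paper instead set its mutant cell cluster against wild-type tenocytes, and there lists Itgbl1 among the most downregulated genes. The nearest pair here was mutant Scx-low fibroblasts at 110 CPM and wild-type Scx-high cells at 358. Summed over the 3 RGD-binding α chains, the level was 64.8 (58.4 to 71.7) in the mutant and 118 (106 to 132) CPM in the wild-type library.

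Shares of cells with an Itgbl1, Itga5, Itgb1 or Itga11 UMI put the libraries in the same order at an equal depth of 1500 UMIs drawn from each cell. The order turned for Itgb5 in Scx-high cells, at 8.88% (5.43 to 13.5) in the mutant and 10.5% (8.76 to 12.5) in the wild-type library. It also turned for the sparse Itga8 in Scx-low fibroblasts, at 0.66% and 0.59%. Shallower cells, 41 wild-type and 170 mutant Scx-low fibroblasts and 84 and 19 Scx-high cells, were left out. An Itgbl1 UMI was then seen in 11.8% (10.3 to 13.5) of mutant and 6.77% (5.00 to 8.93) of wild-type Scx-low fibroblasts, against 0.88% and 0.70% of immune cells, and an Itga5 UMI in 3.59% (2.75 to 4.59) and 7.66% (5.77 to 9.92). Before thinning the shares were 19.7% and 13.5% for Itgbl1 and 6.95% and 19.0% for Itga5. Thinned Scx-high cells held an Itgbl1 UMI in 34.6% (28.2 to 41.4) of mutant and 39.0% (36.1 to 42.0) of wild-type cells, and an Itgb1 UMI in 39.7% (33.1 to 46.6) and 30.5% (27.7 to 33.3). For Itga11 the thinned shares of 3.74% (1.63 to 7.23) and 2.14% (1.36 to 3.20) overlapped.

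Splitting the Scx-low fibroblasts showed where Itgbl1 and Itga5 differed. Cells that kept at least 10 Tnmd UMIs per 10000, where Tnmd encodes the tendon membrane protein tenomodulin, had Itgbl1 levels of 143 and 179 CPM in the wild-type and mutant libraries, a mutant ratio of 1.25 (0.94 to 1.69). The other Scx-low fibroblasts had 33.8 and 89.6, a ratio of 2.65 (2.07 to 3.42). Without Pi16-positive cells, where Pi16 marks adventitial fibroblasts, the Tnmd-low cells had 26.8 and 94.3, a ratio of 3.51 (2.41 to 5.30). The library difference in Itgbl1 was therefore seen in Scx-low fibroblasts with little Tnmd, and in Tnmd-keeping ones its interval held 1. Itga5 was lower in the mutant library in each of these subclasses, with ratios from 0.33 to 0.40. Schwann cell markers summed to 345 CPM in mutant and 66.8 in wild-type Scx-low fibroblasts, and with Schwann, muscle and epidermal cells removed the ratios were 2.18 for Itgbl1 and 0.35 for Itga5.

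Levels across 5 ranges of Scx content, which also hold the few unassigned cells, were higher in the upper ranges for Itgbl1 and lower for Itga5 in the wild-type library. From 0 to 5, 5 to 30, 30 to 100, 100 to 300 and 300 or more Scx UMIs per 10000, Itgbl1 in the wild-type library was at 38.9, 82.8, 316, 360 and 367 CPM. In the mutant library it was at 99.6, 179, 304, 350 and 308. The libraries stood apart in the lower 2 ranges and overlapped in the upper 3. Itga5 went down along the wild-type ranges, from 68.3 to 14.7, and in the mutant library it was at 21.5, 33.5, 5.68, 26.2 and 45.2 from 117, 21, 2, 9 and 17 UMIs, with no steady order. Itga11 was higher in the mutant library in the 100 to 300 range, at 43.7 (24.5 to 72.1) against 12.6 (8.80 to 17.4), and in the top range, at 37.2 (20.3 to 62.4) against 10.7 (6.10 to 17.3).

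**Figure D3:**
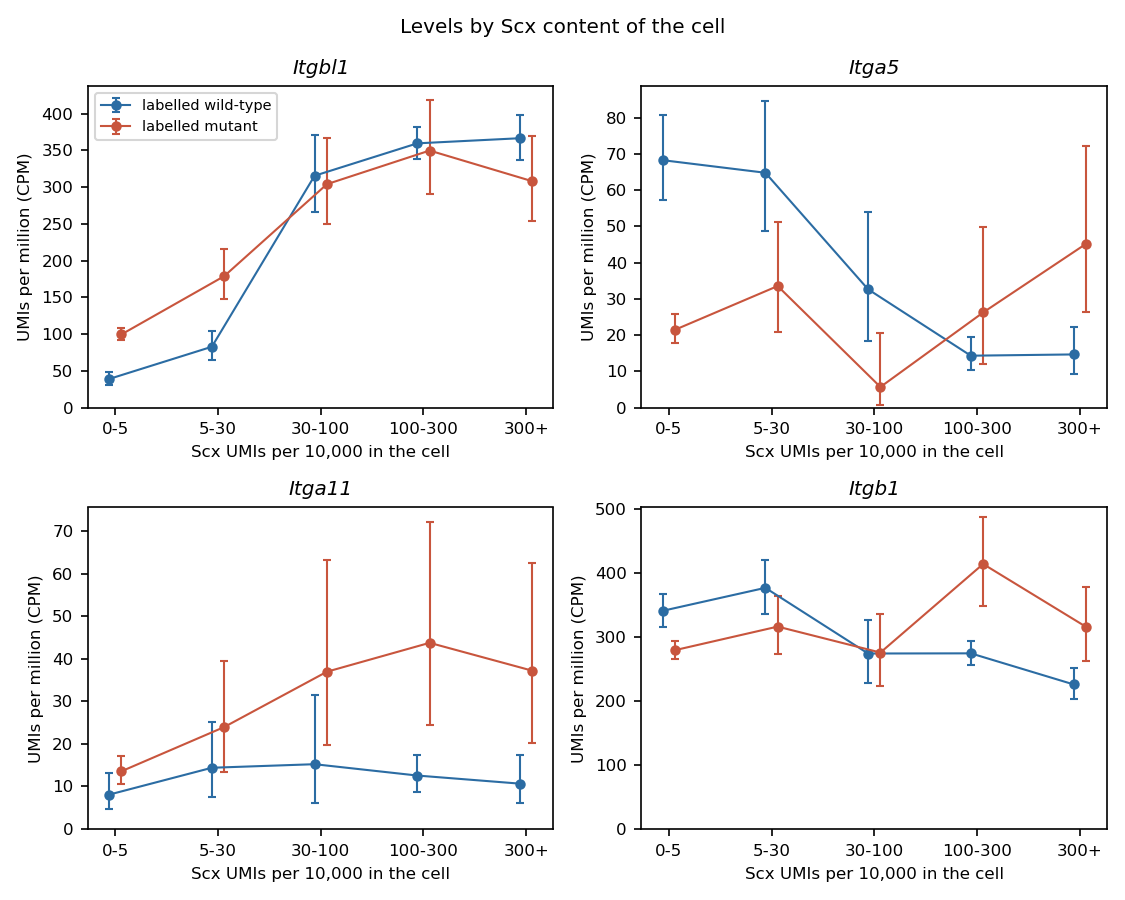
CPM of Itgbl1, Itga5, Itga11 and Itgb1 in cells grouped into 5 ranges of Scx UMIs per 10000, for the libraries labelled wild-type (blue) and mutant (red); bars are 95% exact Poisson intervals, lines join ranges of one library, and cells of the mural, endothelial, immune, haemoglobin-rich and mixed classes are left out. Itgbl1 climbs from 38.9 to 367 along the wild-type ranges, and in the mutant library it is at 99.6 in the lowest range, 350 in the fourth and 308 in the highest.

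Over whole libraries these class values combined with the class shares. Itgbl1 was at 202 (193 to 211) CPM in the wild-type and 122 (115 to 130) in the mutant library, a ratio of 0.61 (0.56 to 0.66). In such a sum fewer cells of a class and less RNA per cell cannot be told apart, and by class the ratio was 0.90 in Scx-high cells and 2.18 in Scx-low fibroblasts. Itga1 was 2.24-fold (1.47 to 3.48) lower in the whole mutant library. Mural cells made up 5.88% of wild-type and 3.20% of mutant cells and held 38 of 82 and 15 of 32 Itga1 UMIs. Within mural cells the Itga1 ratio was 1.02 (0.52 to 1.90). Scx-high cells held 27 and 2 Itga1 UMIs, and the part of each class in the lower level was not tested. Of 12026 genes, 7.35% were at least 2-fold higher and 4.52% lower over the whole libraries. Itga11 was there at 1.62 (1.23 to 2.12) and Itgb1 at 0.96 (0.91 to 1.02).

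Among the adaptors that join integrins to actin, many were higher in mutant Scx-high cells. Of 25 listed genes 21 were measured, 10 were at least 2-fold higher (12.3% of all genes were) and 0 lower, with a median of 0.82 on the log2 scale beside 0.28 for all genes. Zyx (zyxin, a focal adhesion protein that responds to tension) stood at 133 against 21.4 CPM, 6.21-fold higher. Vcl (vinculin) was 3.51-fold and Actn1 (α-actinin) 3.30-fold higher, and Tns2 at 0.63 was the low end. In the wild-type library these adaptors were low in Scx-high cells, with 12 of 22 at least 2-fold lower than in Scx-low fibroblasts and 0 higher, beside 19.3% and 5.75% of all genes and a median gene at −0.44. There Zyx was at 0.21 and Lims2 at 0.05. In Scx-low fibroblasts 1 of 23 was higher and 1 lower between libraries, near the 5.17% and 4.97% of all genes. Lims2 was the lower one, 4.63-fold.

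Ligands bound through RGD or related sites moved in the same cells. Of 15 measured in Scx-high cells, 9 were at least 2-fold higher in the mutant library and 0 lower, with a median of 1.34 on the log2 scale, beside 12.3% and 7.00% of all genes and their median of 0.28. Spp1 (osteopontin) rested on 866 UMIs against 25, a ratio of 156 (105 to 242). Its median over Scx-high cells was 0 in both libraries, so the mutant UMIs came from a part of the cells. Postn (periostin) stood at 3462 against 164 CPM, 21.1-fold higher, and Fn1 (fibronectin, the main ligand of α5β1) at 2930 against 485, 6.05-fold higher. In Scx-low fibroblasts 5 of 18 were higher and 1 lower, beside 5.17% and 4.97% of all genes. Spp1 was at 33.4 (16.8 to 77.6), Edil3, an RGD protein that binds αv integrins, at 17.6 (5.88 to 86.8) and Postn at 2.22, whereas Fbn1 (fibrillin-1) was 2.43-fold lower. Itga5 and its ligand Fn1 thus did not share a direction there, since Fn1 was at 1.05 (1.003 to 1.09). The higher ligand levels were not particular to Scx-high cells. In immune cells Postn was 19.9-fold, Spp1 5.43-fold and Fn1 2.58-fold higher in the mutant library, with Tgfb1 at 0.92 and Tgfbi at 0.93. In mural cells Postn was at 2.14 and Fn1 at 0.77. The part of free RNA in the ligand values of any class was not tested.

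Collagens split by type in Scx-high cells. Of 14 listed genes, collagens and the collagen receptors Ddr1 and Ddr2, 4 were at least 2-fold higher and 5 lower in the mutant library, with a median of −0.62 on the log2 scale, beside 12.3% and 7.00% of all genes. Col5a1 was 15.2-fold, Col3a1 8.53-fold and Col5a2 4.03-fold higher. Col2a1 was 7.59-fold, Col1a2 3.84-fold and Col1a1 3.59-fold lower. Col3a1 is also one of the 5 fibroblast-gate genes. In immune cells Col3a1 was 8.92-fold higher in the mutant library too, with Col1a1 at 0.60, and the part of free RNA was not tested. In Scx-low fibroblasts 0 of the 14 were higher and 1 lower, Col2a1 at 0.40, beside 5.17% and 4.97% of all genes.

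These list counts followed the fibroblast split only in part. In Scx-high cells without fibroblast genes the adaptors gave 7 of 21 higher and 0 lower, the RGD and other ligands 3 of 14 higher and 2 lower, and the collagens 4 of 14 higher and 7 lower. With fibroblast genes the counts were 5 of 17 and 0, 8 of 15 and 0, and 3 of 13 and 5. The adaptor share of 33.3% in the first set stood beside 24.3% of all genes, and that of 29.4% in the second beside 6.93%. The ligand share of 21.4% in the first was below that of all genes, and in the second it was 53.3%. Among single genes, the mutant over wild-type ratios with and without fibroblast genes were 2.81 and 8.59 for Zyx, 6.46 and 15.5 for Postn and 4.67 and 8.32 for Col5a1. For Fn1 they were 3.29 and 1.75, and for Col5a2 2.63 and 0.93 (0.64 to 1.32). Col3a1, at 2.72 and 2.00, is one of the 5 genes that set the split. Its level on each side is bounded by the gate, and its ratios there, also counted among the collagens, are not a separate result. Spp1 was at 43.8 (27.9 to 73.1) with and 54.1 (19.2 to 173) without them, the latter from 13 UMIs against 6. Col1a1 was lower in the mutant library on both sides, 2.44-fold with and 4.80-fold without fibroblast genes.

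**Figure D4:**
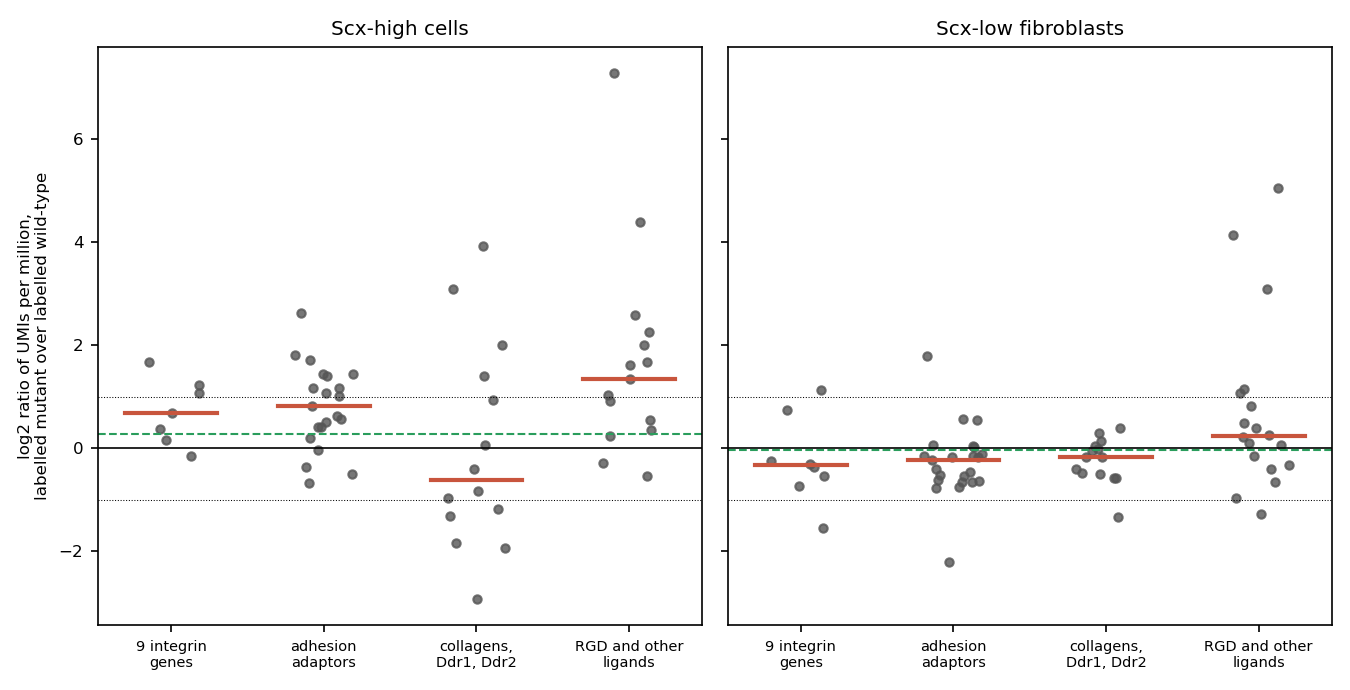
Log2 ratio of CPM, library labelled mutant over library labelled wild-type, for every measured gene of 4 lists in Scx-high cells (left) and Scx-low fibroblasts (right); each point is a gene, red bars are list medians, the green dashed line is the median of all genes and dotted lines mark 2-fold. In Scx-high cells the medians are 0.82 for adaptors, 1.34 for RGD and other ligands and −0.62 for collagens and their receptors.

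Several of the other 18 integrin subunits were high in classes outside tendon fibroblasts. Itga4 and Itga7 were high in mural cells, at 163 (134 to 196) CPM for Itga4 in the wild-type library and 157 (113 to 213) for Itga7 in the mutant library. Between libraries, mural Itga4 was 3.86-fold lower in the mutant and mural Itga7 was at 1.17. Itga6 was high in endothelial cells of the mutant library at 176 (98.4 to 290), and Itgb4, its epithelial and endothelial partner, in those of the wild-type library at 212 (124 to 340). The leukocyte chains Itgam and Itgb2 were immune, at 89.4 (64.7 to 120) and 107 (76.7 to 145), and had 0 and 1 UMIs in Scx-high cells of both libraries together. Itgad had 0 UMIs and Itgb6 had 1 in all.

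Some of these subunits separated Scx-low fibroblasts from Scx-high cells. Itgb3, the β chain of the αv and αIIb receptors, had 100 UMIs in wild-type Scx-low fibroblasts, 36.7 (29.8 to 44.6) CPM, against 2 UMIs in Scx-high cells. In mutant Scx-low fibroblasts it was 5.29-fold (3.63 to 7.84) lower. Itga6 was 3.78-fold (2.77 to 5.20) lower there. Itga2b, known from platelets, had 119 and 315 UMIs in Scx-low fibroblasts, 43.6 and 54.6 CPM, a ratio of 1.25 (1.01 to 1.56). Of the 5 other subunits measured in Scx-low fibroblasts 3 were at least 2-fold lower in the mutant library (Itgb3, Itga6 and Itga9) and 0 higher, beside 4.97% and 5.17% of all genes. In wild-type cells Itga2, a collagen-binding chain, had 41 UMIs in Scx-high cells and 3 in Scx-low fibroblasts, a ratio of 7.72 (2.46 to 39.0).

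**Figure D5:**
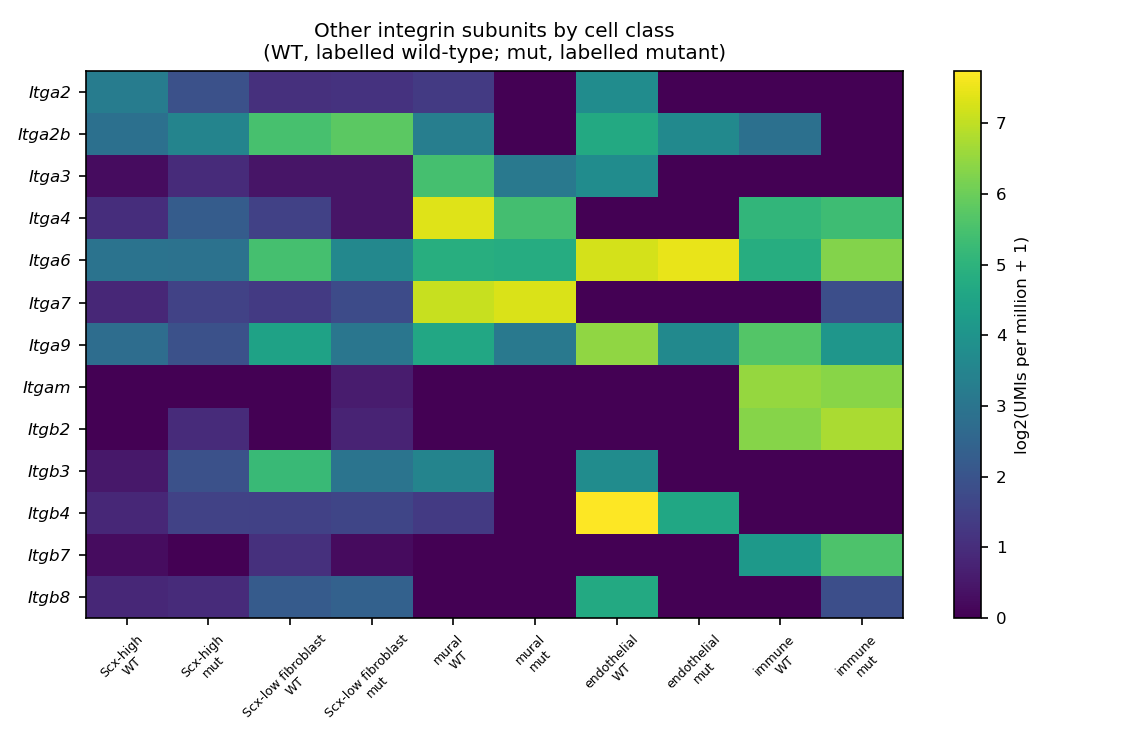
Levels of the other integrin subunits with at least 30 UMIs in all, as log2 of CPM plus 1 (colour), in 5 cell classes of the libraries labelled wild-type (WT) and mutant (mut). Itga4 and Itga7 are bright in mural cells, with Itga4 lower in the mutant library. Itga6 and Itgb4 are bright in endothelial cells, Itgam and Itgb2 in immune cells, and Itgb3 in wild-type Scx-low fibroblasts.

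Across the 10 class-by-library sums, the genes with the pattern closest to each member were named by Pearson correlation of log levels among 5615 genes, as a description of 10 points that share 2 libraries. For Itgbl1 they were Acbd3 (0.97), Abi3bp (0.97), an extracellular matrix protein, and Sra1 (0.97). Itga8 went with Actg2 (0.99), Fbxl22 (0.98) and Cnn1 (0.98), of which Actg2 and Cnn1 encode smooth muscle proteins. Itgb1 went with Sparcl1, Col18a1 and Oaz2 (0.97 to 0.98), and Itga11 with Sorcs2, Fbn2 and Grb14 (0.94 to 0.95). For Itga1 these were Cystm1, Camk2g and Lasp1, for Itga5 Pafah1b1, Zc3h18 and Bmpr2, for Itga10 Bmpr1a, Pdgfrb and Trabd2b, for Itgav Exosc3, Slc35b3 and Idh1, and for Itgb5 Ap5s1, Vma21 and Plxnb2.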

How the data were processed

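The authors made 10x Genomics 3′ libraries and deposited counts of UMIs per gene and cell, aligned to mm10 and not normalized, with cell barcodes kept by total UMI count. The methods name Cell Ranger 2.0 and the submitters' processing notes 1.2.0. Counts were summed over cells of a class and divided by the class total. Mural, endothelial and immune cells had at least 5 UMIs over their markers, cells over 50% haemoglobin UMIs were set apart, and cells meeting more than one gate were called mixed. Members and lists were chosen with earlier results of these data known. A gene counted as measured with at least 30 UMIs over both sides, and as higher or lower at 2-fold. Named list genes are the 3 highest and 3 lowest ratios with at least 100 UMIs, others were chosen after their values were seen. Intervals are exact Poisson, Clopper-Pearson or conditional binomial, and a count of 0 allows 3 counts. Scrublet called 26 and 8 cells, which stayed in. On simulated counts the intervals held the true ratio for 95.8 to 96.3% of genes, and 198 to 200 of 200 changed genes had the right direction. Python 3.11.15, SciPy 1.17.1 and scanpy 1.11.5 were used. Protein sequences were not used here.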

Additional observations from a re-analysis of the deposited data

Results flagged for a closer look

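Itga5 was at 1.62 in mutant over wild-type Scx-high cells and at 0.34 in Scx-low fibroblasts, and Itgb1 at 1.29 and 0.81. Each was picked out because the ratio lay on opposite sides of 1 in the 2 classes with intervals that leave 1 out. With 1 library per group the difference between classes was not tested, and among Scx-high cells the Itga5 ratio was 0.94 (0.53 to 1.67) with fibroblast genes and 0.98 (0.12 to 3.72) without them, the latter from 2 mutant UMIs. For Itgb1 these ratios were 0.94 (0.80 to 1.10) and 1.41 (1.05 to 1.87), beside a median gene higher by 0.12 and 0.41 on the log2 scale. Relative to the median gene, Itgb1 was at 1.06 in all Scx-high cells and 0.83 in Scx-low fibroblasts, and Itga5 at 1.34 and 0.35.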

How the results depend on the processing

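Of 510 member ratios over 17 alternatives, 483 stayed within the interval of the reported value, 26 moved out of it, and 1 that had passed 2-fold moved out and to the other side of 1 (Itga11 within the mutant library). Some of the 483 could not move. A minimum of 100 UMIs or no minimum does not enter a ratio, and a filter on one class leaves ratios without that class unchanged. In all 18 values, of 8 ratios, lay on the other side of 1, and for 14 of them the reported interval already held 1. The others were wild-type Itgb1 centred on the median gene (1.01) and, with fibroblast-gene cells removed, Itga5 between libraries (0.98), mutant Itgb5 (0.95) and that Itga11 ratio. In Scx-high cells between libraries, the 3 members at least 2-fold higher became 1 (Itga11) when centred on the median gene and with cycling cells removed, and 1 (Itgav) with fibroblast-gene cells removed. Of all genes 7.11%, 12.5% and 24.3% were higher in these settings, beside 12.3% in the main one. The 3 members became 2 without the 20 most abundant genes, after thinning and with a minimum of 100 UMIs, and 4 with Scx-high from 60 per 10000 and with no minimum. In that order 8.05%, 12.5%, 9.46%, 12.4% and 30.4% of all genes were higher. The 0 lower became 1 with Scx-high from 15 per 10000 and with no minimum (Itga1), and 1 with fibroblast-gene cells removed (Itgbl1). Of all genes 6.40%, 5.91% and 9.55% were lower in these settings. In Scx-low fibroblasts the 1 higher became 0 with the mean over cells and after thinning, where Itgbl1 was at 1.64, and 2 with Pi16-positive cells removed. There 5.22%, 4.85% and 5.48% of all genes were higher. Within the wild-type library the 1 lower became 2 after thinning (with Itgav) and with no minimum (with Itga8), beside 19.5% and 27.3% of all genes. Within the mutant library the 3 higher became 1 after thinning (Itgbl1), 1 with fibroblast-gene cells removed (Itga10), 2 with a minimum of 100 UMIs and 4 with no minimum. In that order 5.82%, 17.3%, 3.86% and 24.9% of all genes were higher. With fibroblast-gene cells removed, Itga10 was at 2.62 (0.30 to 10.4) and Itga11 at 0.82 (0.098 to 3.06). Each rested on 2 UMIs in Scx-high cells, and both intervals hold 1, so neither has a direction in that setting. The cause was not tested. Removal of cells over 5% haemoglobin, of Schwann, muscle and epidermal cells, of Pi16-positive cells and of fibroblast-gene cells was chosen after seeing the data. No paired analysis was possible because the 2 groups hold 1 library each, and none could be left out. Depth limits Itga1, Itga8 and Itga10, which gave 2 to 27 UMIs in Scx-high cells.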
